A study of Caenorhabditis elegans with 6 samples.

Results

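The gene *slc-17.6* (WBGene00017398) encodes a solute carrier and *haf-9* (WBGene00001819) an ATP-binding cassette (ABC) transporter. Both are membrane transporter genes, and they are 2 of the 85 genes in the deposited expression table of *C. elegans*, where they were picked by name. *slc-17.6* is 1 of 9 genes of the annotation that carry an slc-17 name and *haf-9* is 1 of 8 haf genes, and the other members of both families were not analysed here. Polyadenylated RNA of synchronized young adult whole worms was sequenced in 3 groups with 2 libraries each. These were the N2 wild type, *hlh-11* knockout (KO) worms and *hlh-11* overexpression (OE) worms. All 3 groups are given as strain N2 and were fed *E. coli* OP50. The study describes its *hlh-11* KO as a single CRISPR/Cas9 allele with a frameshift in an exon shared by all transcripts. It describes *hlh-11* transgenes under the gene's own promoter, but the sources used here do not say which of them the sequenced OE worms carried. The targeted gene *hlh-11* was not analysed here, so the genotype labels could not be checked on it.

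Solute carriers move small molecules across membranes without hydrolysing ATP. The SLC17 family is named for organic anion transporters, which in mammals include the lysosomal sialic acid carrier sialin and the vesicular glutamate transporters. ABC transporters use ATP to move their substrates. HAF stands for half-transporter, an ABC protein with a single membrane domain and a single ATP-binding domain that works as a dimer. HAF-9 is known to pair with HAF-4 on the membrane of granules in the worm intestine. HLH-11 is a basic helix-loop-helix transcription factor.

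The values are RPKM, a gene's read number scaled to its length and to the size of its library, so that levels can be compared between genes. In each of the 85 genes the KO mean and the OE mean fall to either side of the wild-type mean. They had therefore been selected on these same libraries for opposite changes, and the direction of each change described here was fixed by that selection. Fold changes, intervals and p-values were computed on the same libraries. They are not independent of the selection and may overstate the changes. All 510 values were whole numbers of reads, within 1e-06 reads, given a single total for each library and a single length for each gene. The totals were 16538554 to 24023096 reads. *slc-17.6* had 315 to 881 reads per library and *haf-9* had 1195 to 2123. Separate cultures are not described for the libraries, so the p-values reflect only how far these samples spread, and that spread may be technical.

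Both genes lie on chromosome I of WBcel235, on the forward strand, and are protein-coding. *slc-17.6* runs from 2250131 to 2254908 and *haf-9* from 6081782 to 6086006, with 3.83 megabases between them. For *slc-17.6* the annotation has 5 transcripts. Of these 3 are protein-coding, with proteins of 545, 503 and 68 residues, and the other 2 are labelled non-coding. The length that the authors divided by, as recovered from the values, was 2033 bases. It equals the length of the longest annotated transcript, which is 1 of the 2 non-coding ones, against 2178 bases for all annotated exons of the gene joined. Such equality held for 4 of the 85 genes, so it does not show which transcript the authors used. For *haf-9* the annotation has 3 transcripts, all protein-coding, with proteins of 814 or 673 residues. Its recovered length was 2595 bases, against 2639 bases for its longest transcript and 2674 bases of joined exons. The values are totals per gene, and the transcripts of a gene were not separated. No other annotated gene overlaps *slc-17.6*. A snoRNA gene and a non-coding RNA gene lie on the opposite strand inside *haf-9*, and neither shares a base with its exons.

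The level of *slc-17.6* was highest in *hlh-11* KO and lowest in *hlh-11* OE. It was at 14.3 RPKM in both wild-type libraries, from 636 and 480 reads. In KO the values were 20.2 and 22.8 RPKM, from 716 and 881 reads, and in OE they were 8.11 and 10.6 RPKM, from 315 and 516 reads. No library of one genotype overlapped another, with both KO libraries above and both OE libraries below the wild type.

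The level of *haf-9* had the same order of genotypes, with smaller relative differences between them. The wild-type libraries were at 34.3 and 30.8 RPKM, from 1943 and 1321 reads. In KO they were at 43.9 and 43.1 RPKM, from 1983 and 2123 reads, and in OE at 24.1 and 28.3 RPKM, from 1195 and 1766 reads. The 3 groups did not overlap here either, although the higher OE value and the lower wild-type value lay close together. Per unit of gene length, *haf-9* was the more abundant of the 2 genes in every library. In the wild type *haf-9* ranked 54 and *slc-17.6* ranked 74 of 85 by RPKM, so both were below the median gene of the table at 75.8 RPKM. Of the 85 genes, 98.8% had no overlap between KO and wild type and 98.8% had none between OE and wild type, so a lack of overlap does not set these genes apart in the table.

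**Figure D1:**
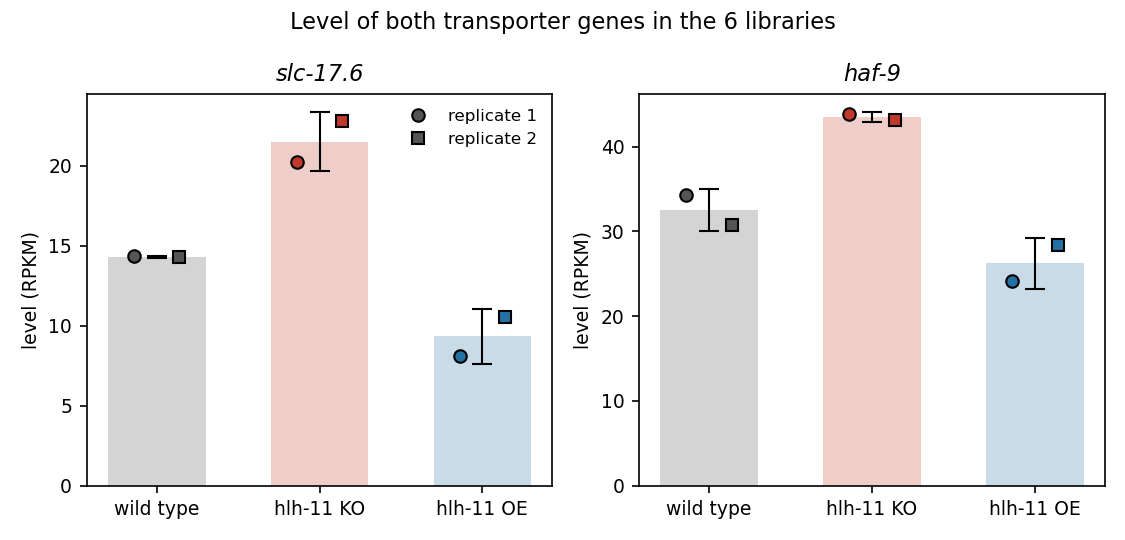
Level in RPKM (vertical axis, from 0) of *slc-17.6* (left) and *haf-9* (right) by genotype (wild type, KO, OE). Bars are means and error bars the SD of 2 libraries, circles are replicate 1 and squares replicate 2. For *slc-17.6* the KO libraries reach 20.2 and 22.8 RPKM and the OE libraries 8.11 and 10.6 RPKM around a wild-type level of 14.3 RPKM, while for *haf-9* the groups lie closer together.

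To ask how loss of HLH-11 was accompanied by changes of both transporters, KO was compared with the wild type. *slc-17.6* averaged 21.5 ± 1.84 RPKM in KO against 14.3 ± 0.0420 RPKM in wild-type worms (SD, n = 2 each), which is 1.5 ± 0.13 times as high. Its log2 fold change was 0.57, with a 95% interval of 0.26 to 0.88 (adjusted p = 5.61e-04 from limma), and it was higher in both KO libraries. *haf-9* averaged 43.5 ± 0.566 RPKM in KO (SD, n = 2). With 32.5 ± 2.50 RPKM in the wild type (SD, n = 2), the ratio was 1.34 ± 0.104. Its log2 fold change was 0.41, with a 95% interval of 0.11 to 0.72 (adjusted p = 0.0107 from limma). Both genes therefore rose in KO, as did 70.6% of the 85 genes at an adjusted p under 0.05. These are all 60 genes with a higher KO value, so passing does not set the members apart. The fold changes are on the scale of log2(RPKM + 0.5). The model gave all genes 1 pooled SD of 0.157 on that scale, from which the intervals follow. Among the 60 genes with a higher KO value, *slc-17.6* ranked 41 and *haf-9* ranked 53 by log2 fold change, below the median of 0.77 of those 60. The call of *haf-9* did not hold without wild type replicate 2 (log2 fold change 0.34, adjusted p = 0.0765) or without KO replicate 1 (0.40, adjusted p = 0.0710), both from limma.

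In *hlh-11* OE worms *slc-17.6* fell and *haf-9* did not pass the test. *slc-17.6* averaged 9.34 ± 1.74 RPKM (SD, n = 2), a ratio to the wild type of 0.653 ± 0.122. Its log2 fold change was -0.60, with a 95% interval of -0.91 to -0.29 (adjusted p = 2.84e-04 from limma), and at an adjusted p under 0.05, 60.0% of the 85 genes were lower in OE. *haf-9* averaged 26.2 ± 3.0 RPKM (SD, n = 2), a ratio of 0.805 ± 0.111. Its log2 fold change was -0.31, with a 95% interval of -0.62 to -0.00151 before any adjustment (adjusted p = 0.0552 from limma). Over the alternatives that value ranged from -0.42 to -0.19 and its adjusted p from 0.0144 to 0.199. It passed without OE replicate 2, with a pseudocount of 1 and with limma voom on the recovered reads. Among the 60 genes with a lower OE value *slc-17.6* ranked 30, close to their median log2 fold change of -0.58, and *haf-9* ranked 52.

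**Figure D2:**
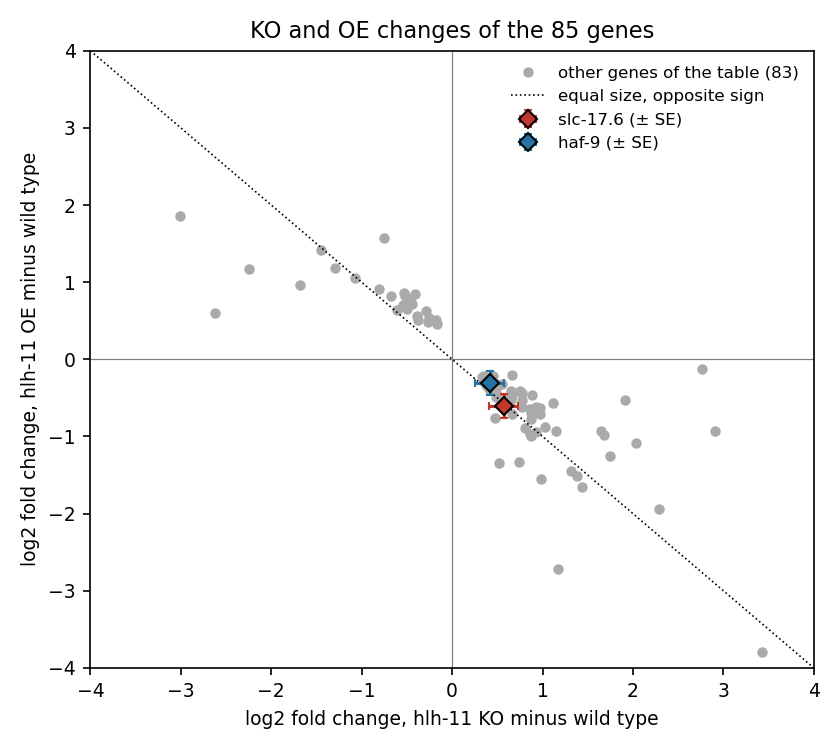
Log2 fold change in *hlh-11* KO (horizontal axis) against that in *hlh-11* OE (vertical axis) for the 85 genes, both against the same wild-type libraries, with the SE of both members as error bars. *slc-17.6* (0.57 and -0.60) and *haf-9* (0.41 and -0.31) lie near the centre of the plot and close to the dotted line of changes equal in size and opposite in sign. That all genes lie in 2 of the 4 quadrants is how the table was selected.

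The comparison of KO with OE leaves the wild-type libraries out of the difference. Its gaps were the widest by selection, since the KO and OE means lie to either side of the wild-type mean in all 85 genes. The mean level of *slc-17.6* was 2.31 times as high in KO as in OE, a log2 difference of 1.17 with a 95% interval of 0.86 to 1.48 (adjusted p = 2.24e-12 from limma). For *haf-9* the ratio was 1.66 and the log2 difference 0.72, with a 95% interval of 0.42 to 1.03 (adjusted p = 7.20e-06 from limma). In this comparison all 85 genes passed (100%), so passing it says nothing particular about these genes. The log2 difference of *slc-17.6* was 0.99 to 1.35 and that of *haf-9* was 0.61 to 0.84 over all alternatives, and both passed in each of them. When the spread was estimated from the gene alone, with 3 residual degrees of freedom, limma gave an adjusted p of 0.00652 for *slc-17.6* and 0.00796 for *haf-9*, far above the values that rest on the pooled spread.

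Whether a gene moved farther in one genotype than in the other was read from the sum of its KO and OE log2 fold changes, which is 0 for changes of equal size. The sum was -0.03 for *slc-17.6*, with a 95% interval of -0.56 to 0.50 (adjusted p = 0.965 from limma). For *haf-9* it was 0.11, with an interval of -0.43 to 0.64 (adjusted p = 0.888 from limma). Neither differed from 0, where 11.8% of the 85 genes did. The intervals are wide against changes of 0.31 to 0.60, so a KO change well above or below the OE change was not detectable with 2 libraries per genotype.

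The replicates of both genes were set against the error of counting reads alone. The wild-type libraries of *slc-17.6* differed by 0.00599 on the log2 scale, which is 0.0687 times the counting error of 0.0872. Its KO libraries differed by 0.17 (2.40 times the counting error) and its OE libraries by 0.38 (3.71 times). For *haf-9* the difference was 0.16 in the wild type (3.04 times), 0.03 in KO (0.589 times) and 0.23 in OE (4.33 times). The wild-type libraries of *slc-17.6* and the KO libraries of *haf-9* thus differed by less than the counting error, so their small SD understates the error of those means. In OE both genes were lower in replicate 1, where 67 of the 85 genes were lower in replicate 1, with a median log2 difference of -0.15 between the OE libraries. Among the 60 genes higher in KO, which include both members, 51 were lower in OE replicate 1, with a median of -0.22. The median was -0.049 in the 25 genes lower in KO. In the wild type 66 of the 85 genes were higher in replicate 1, with a median log2 difference of 0.11. Both members were among them, *slc-17.6* by 0.00599 only. Whether these library differences bear on the members was not tested. Without OE replicate 1 the OE log2 fold change was -0.42 for *slc-17.6* and -0.19 for *haf-9*.

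Both genes were compared directly by dividing the RPKM of *slc-17.6* by that of *haf-9* in the same library, a ratio that does not depend on the library total. The ratio was 0.418 and 0.464 in the wild type, 0.461 and 0.530 in KO and 0.336 and 0.373 in OE. Both OE libraries lay below all other libraries, while KO replicate 1 lay between the wild-type libraries. On the log2 scale the ratio in OE minus that in the wild type was -0.31, and the ratio in KO minus that in OE was 0.48. The exact two-sided permutation test gave p = 0.33 for both, the smallest value that this test can give for 2 libraries against 2, so it cannot reach p = 0.05 here. Between KO and the wild type the difference was 0.17 (exact permutation p = 0.667). The pooled SD of the log2 ratio within a genotype was 0.119. With 3 contrasts made by this test, the larger OE change of *slc-17.6* than of *haf-9* is given as a description of these libraries.

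**Figure D3:**
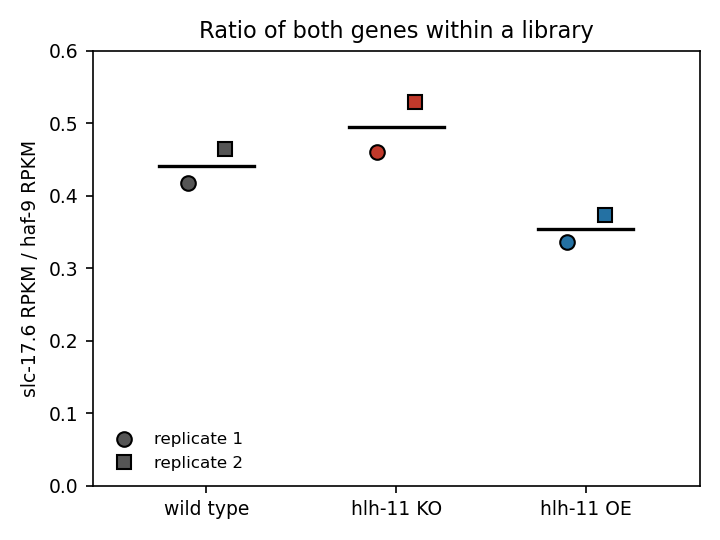
RPKM of *slc-17.6* divided by RPKM of *haf-9* (vertical axis, from 0) in each library of the 3 genotypes, with lines at the group means. The OE libraries, at 0.336 and 0.373, are the lowest, and the KO value of 0.461 falls within the wild-type range of 0.418 to 0.464.

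The genes of the table with the most similar profiles were found by the Euclidean distance between log2(RPKM + 0.5) values over the 6 libraries, each profile first centred on its wild-type mean. The measure is a description, since all genes share the libraries and the selection. For *slc-17.6* the nearest was *lec-10*, which encodes a galectin, at a distance of 0.245 (median over the other genes 0.932). It changed by 0.51 in KO and by -0.47 in OE on the log2 scale. The next were the C-type lectin gene *clec-63* at 0.288, the transthyretin-related gene *ttr-17* at 0.301, *dsc-4*, whose product is a microsomal triglyceride transfer protein that loads lipid onto lipoproteins, at 0.311, and *cal-5*, named for its likeness to calmodulin, at 0.328. All of these 5 passed in both contrasts. Of 14 alternatives, 3 ended the OE call of *clec-63*, 3 that of *cal-5* and 2 that of *ttr-17*, in each case with wild type replicate 1 left out among them. The KO call of *dsc-4* was lost under 3, among them without either wild-type library, and that of *cal-5* under 2, when KO replicate 2 or wild type replicate 2 was left out. The OE calls of *clec-63* and *cal-5* were also lost without OE replicate 1, and *lec-10* kept both calls under each alternative.

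The profile of *haf-9* had closer neighbours. The nearest was *gas-1*, a subunit of complex I of the mitochondrial respiratory chain, at a distance of 0.0810 (median over the other genes 1.29), whose log2 level was 0.39 above the wild type in KO and differed from it by -0.28 in OE. It was followed by the branched-chain amino acid aminotransferase gene *bcat-1* at 0.0908, the collagen gene *col-129* at 0.125, the fatty acid-binding polyprotein gene *npa-1* at 0.167 and *C16B8.3* at 0.169. These 5 genes passed in KO, and none of the 5 did without KO replicate 1 (adjusted p of 0.0505 to 0.0783 from limma). In OE *bcat-1* and *C16B8.3* passed, and *gas-1*, *col-129* and *npa-1*, like *haf-9*, did not (adjusted p = 0.0790, 0.0563 and 0.164 from limma). This split depended on the setting, since the OE call of *bcat-1* was lost under 7 of 14 alternatives and that of *C16B8.3* under 1, while *col-129* passed under 6, *gas-1* under 3 and *npa-1* under 1. Both members were not among each other's nearest genes. At a distance of 0.508, *haf-9* ranked 22 from *slc-17.6* and *slc-17.6* ranked 23 from *haf-9*.

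**Figure D4:**
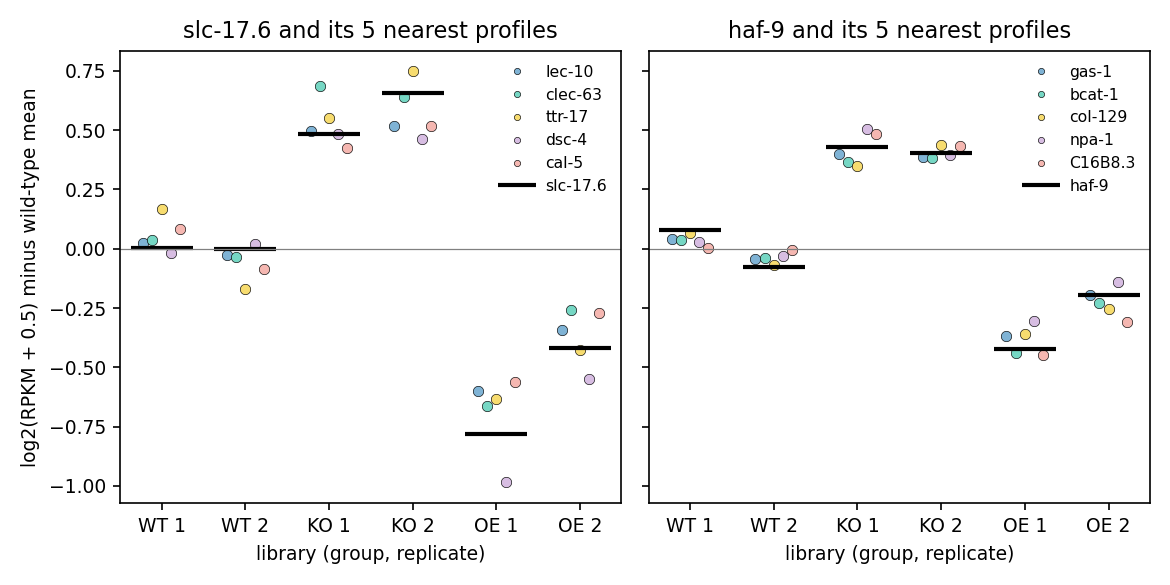
Profiles of *slc-17.6* (left) and *haf-9* (right), as black bars, and of the 5 genes nearest to each, as coloured points, over the 6 libraries (horizontal axis). The vertical axis is log2(RPKM + 0.5) minus the gene's own wild-type mean. The neighbours of *haf-9* lie close to its bars, at distances of 0.0810 to 0.169, and those of *slc-17.6* scatter more widely, at 0.245 to 0.328.

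Genes of lysosomes and lysosome-related organelles were taken from a list that held 7 genes of the table out of 96 in the annotation. Neither member is on that list, and HAF-9 is known from granules of the intestine. The location of the *slc-17.6* product was not examined. In KO 5 of the 7 were higher, 1 was lower and 1 did not pass, where 70.6% of the table was higher and 23.5% lower, with a median log2 fold change of 0.49 against 0.52 over all 85 genes. In OE 5 were lower and 2, *asp-13* and *ctsa-1.1*, were higher, where 60.0% of the table was lower and 29.4% higher, with a median of -0.43 against -0.42. The KO level was higher for the aspartyl proteases *asp-3* (1144 ± 28.2 RPKM against 725 ± 15.7 RPKM in N2), *asp-4* and *asp-5*, for the cathepsin A homolog *ctsa-1.2* and for the cysteine protease *tag-196* (SD, n = 2 each). *asp-13* was lower in KO, and *ctsa-1.1* did not pass there (log2 difference -0.25, adjusted p = 0.109 from limma), although it was called lower under 6 of 14 alternatives. The OE call of *asp-5* (log2 fold change -0.32, adjusted p = 0.0478 from limma) was lost under 8 of 14 alternatives, and the KO call of *asp-13* was lost without wild type replicate 1 or KO replicate 1 and that of *ctsa-1.2* without KO replicate 1. The medians are close to those of the whole table. Of 56 ABC transporter genes and 149 solute carrier genes that the lists hold in the annotation, *haf-9* and *slc-17.6* were the single ones in the table.

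Marker genes of other tissues and of developmental age were read in the same libraries. The table held 6 sperm genes, and all of them were higher in KO and lower in OE, where 70.6% and 60.0% of the table were. All 60 genes of the table with a higher KO value passed in KO, and 51 of the 60 with a lower OE value passed in OE. The direction of each gene was fixed by the selection, so these counts do not set the sperm or collagen genes apart. In OE 4 of the 6 passed when OE replicate 1 or wild type replicate 1 was left out, and also with the spread taken from each gene alone. Their expression came to a summed level of 636 to 806 RPKM in wild-type libraries, 1288 to 1328 RPKM in KO and 417 to 489 RPKM in OE. Of 7 cuticle collagen genes all 7 were higher in KO (70.6% of the table), or 4 without KO replicate 2. In OE 5 of them were lower (60.0% of the table), or 3 without wild type replicate 1. Their sum was 5404 to 6024 RPKM in wild-type libraries, 8018 to 8673 RPKM in KO and 4268 to 4567 RPKM in OE. From the intestine, 1 of 14 listed marker genes was in the table. This was the microvillar actin gene *act-5*, which had 596 and 613 RPKM in wild-type libraries, 767 and 774 RPKM in KO and 465 and 521 RPKM in OE. It was higher in KO and did not pass in OE (log2 fold change -0.30, adjusted p = 0.0659 from limma). The part of these differences in the levels of *slc-17.6* and *haf-9* was not tested. In RNA of whole worms, fewer cells that express a gene and less RNA per cell cannot be told apart.

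The calls of both genes were recomputed under 14 alternatives. These are not all separate checks, since leaving out either library of the genotype not compared repeats the fit of only the groups compared. *slc-17.6* passed in KO and in OE under all 14, with log2 fold changes of 0.49 to 0.66 in KO and -0.78 to -0.42 in OE. Its adjusted p reached 0.0458 in KO and 0.0470 in OE when tested against its own spread. *haf-9* passed in KO under 12 of the 14, and in OE under 3.

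**Figure D5:**
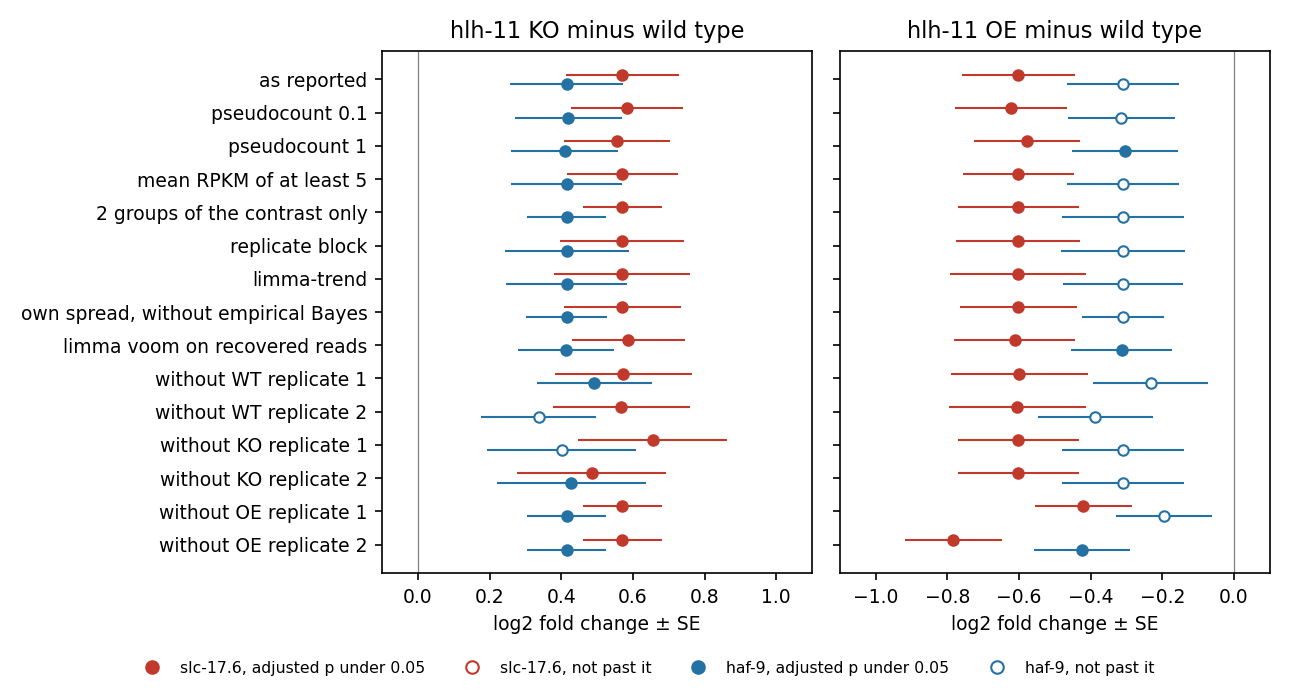
Log2 fold change with its SE (horizontal axis) of *slc-17.6* (red) and *haf-9* (blue) in *hlh-11* KO (left) and OE (right) against the wild type, as reported and under each alternative (vertical axis). Filled points passed an adjusted p of 0.05 and open points did not, and the open points belong to *haf-9*.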

How the data were processed

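Per the study's methods, the authors aligned reads to WBcel235 with TopHat2 and tested genes with DESeq2, and the submitters' notes also name FastQC 0.11.5. The authors deposited RPKM values, 1 column per library, for 85 genes. The sources used here name neither the read counter nor its strand setting. All 85 identifiers matched a symbol, and coordinates are from the Ensembl annotation of WBcel235. Library totals, gene lengths and reads were recovered by finding the whole reads that explain the RPKM steps, with no annotated length used. The totals may be mapped or assigned reads.

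From these values log2(RPKM + 0.5) was computed and modelled over all 6 libraries with limma 3.58.1 (R 4.3.3, lmFit and eBayes, two-sided). Adjusted p-values are Benjamini-Hochberg values over all 85 genes and were called under 0.05. Its prior had infinite degrees of freedom, which gives every gene the pooled spread. The script was tested on simulated data. Ratios within a library were tested by exact permutation (SciPy 1.17.1). The members and lists were chosen with earlier results of these data known. The text names both members, table genes on the ABC, solute carrier and lysosome lists, and the 5 genes nearest to each member. The marker gene *act-5* was named in addition. Alternatives were a pseudocount of 0.1 or 1, a mean RPKM of at least 5, only the groups compared, the replicate number as a block, limma-trend, no empirical Bayes, voom on recovered reads, and leaving out each library.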

Additional observations from a re-analysis of the deposited data

How the results depend on the processing

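*slc-17.6* kept its calls under every alternative run, and leaving out each library gave log2 fold changes of 0.49 to 0.66 in KO and -0.78 to -0.42 in OE. For *haf-9* leaving out a library gave 0.34 to 0.49 in KO, where the call was lost in 2 cases, and -0.42 to -0.19 in OE. Its OE value passed with a pseudocount of 1 (log2 fold change -0.30, adjusted p = 0.0452) and with limma voom (-0.31, adjusted p = 0.0281), so the ABC transporter list then had 1 gene called in OE in place of 0, and 0 to 1 in either contrast when a library was left out. The cause was not tested. The sum of KO and OE changes turned sign without a library, over -0.21 to 0.15 for *slc-17.6* and -0.049 to 0.26 for *haf-9*, and never passed. Without a library, 10 (without KO replicate 1) to 22 genes of the table were lower in KO, and 4 to 7 collagen genes were called in KO and 3 to 7 in OE. With the replicate number as a block, the adjusted p from limma was 0.00195 in KO and 0.00112 in OE for *slc-17.6*, and 0.0214 and 0.0832 for *haf-9*, and no call of these genes changed. The deviations of same-numbered libraries were weakly and negatively correlated across the 85 genes (Pearson r of -0.14, -0.11 and -0.13). These genes thus showed no sign of pairing by number. They were selected on the same libraries, so whether same-numbered libraries were prepared together cannot be told from these values. Of 476 alternative values of the other named genes, 43 lost and 16 gained a call, and 0 changed direction. With 2 libraries per genotype the SD of a group is imprecise, and counting intervals cover counting error only.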
